A study of Mesocricetus auratus with 10 samples.

Results

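Cytochrome P450s are haem enzymes that insert oxygen into drugs, steroids, fatty acids, retinoids and vitamin D. This account covers the P450 genes of hamster liver that lie outside the CYP4 family of fatty acid omega-hydroxylases and outside the sterol and bile acid enzymes CYP7A1, CYP7B1, CYP8B1, CYP27A1 and CYP39A1. They were found by name alone, as a P450 symbol in the gene name column of the array, and each gene was read by its brightest probe. The rule gave 48 of the 14434 gene names on the array, and all 48 passed the filter on dim probes and were among the 13827 genes tested. No measured difference entered this rule, but it was set with earlier results of these data known.

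Liver RNA came from 10 male golden hamsters (Mesocricetus auratus) on a high fat diet, abbreviated HFD, a model of diet-induced fatty liver. The reference was a single mixture of liver RNA of 10 hamsters kept on a standard diet, abbreviated STD. Every HFD animal took 2 arrays of opposite dye orientation, which made 20 arrays. Diet composition, feeding time and age were not stated in the labels. Values are log2 ratios (HFD over STD pool), with the mean ± SD of the 10 animals. Adjusted p comes from limma, two-sided, against a ratio of 0 and over all 13827 genes, and a gene is called higher or lower when it is under 0.05. The pool is 1 RNA, so the spread between STD animals does not enter any p. The direction of every ratio rests on the dyes given in the array names.

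In liver the CYP2C, CYP2D and CYP3A enzymes oxidise most drugs and many steroids, CYP2E1 oxidises ethanol and ketone bodies, and the CYP2J enzymes make epoxides from polyunsaturated fatty acids. P450 reductase hands electrons to these microsomal enzymes, and nuclear receptors such as PXR (NR1I2) and CAR (NR1I3) switch on CYP3A and CYP2B genes when foreign compounds or bile acids arrive. The genes lie in clusters of recent duplicates, so that close relatives differ between rodent species. The names on this array are those of mouse and rat genes given to assembled hamster transcripts, here called contigs, and 1 of the 48 names, CYP2E1, is a synonym in the RefSeq gene table for BCM_Maur_2.0, a hamster assembly. The probes have no genome position in the files. The names below are therefore labels of probes, and an orthologous hamster gene is not implied.

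The 60-base probes behind the largest differences are shown here because the names alone do not fix which hamster transcript was measured. They are given 5′ to 3′ as deposited, and no base is marked.
CYP3A11, contig 8994, highest ratio: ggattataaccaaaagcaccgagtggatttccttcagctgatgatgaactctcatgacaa
CYP20A1, contig 51977, next highest: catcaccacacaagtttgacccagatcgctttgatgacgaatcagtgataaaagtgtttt
CYP2D34, contig 77275, next lowest: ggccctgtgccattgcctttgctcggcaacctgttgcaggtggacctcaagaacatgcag
CYP2F4, contig 59552, lowest ratio: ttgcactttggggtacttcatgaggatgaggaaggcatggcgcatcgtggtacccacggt

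The 200 probes of these names were on the array, 199 of them passed the filter, and they came from 92 contigs. The haem-binding signature of P450s, the stretch around the cysteine that holds the iron, was searched as codons in both strands. It was found in 16 of 116452 probes of the whole array (0.0137%), and 9 of them were probes of these genes. A match describes the letters only. In 7 of the 9 it read forward, as in the next lines, with the signature in capitals.
CYP2C68, contig 6818: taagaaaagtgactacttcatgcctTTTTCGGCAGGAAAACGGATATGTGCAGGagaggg
CYP2A5, contig 90550: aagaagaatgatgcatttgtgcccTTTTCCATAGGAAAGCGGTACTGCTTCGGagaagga
CYP2D4, contig 121915: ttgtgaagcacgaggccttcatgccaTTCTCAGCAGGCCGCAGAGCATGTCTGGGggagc
CYP2J4, contig 42109: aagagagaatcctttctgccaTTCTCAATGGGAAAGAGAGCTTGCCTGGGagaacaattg
In the other 2 it lay on the complement, again in capitals.
CYP2B19, contig 142436: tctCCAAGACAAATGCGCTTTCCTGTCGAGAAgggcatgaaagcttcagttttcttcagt
CYP3A9, contig 151730: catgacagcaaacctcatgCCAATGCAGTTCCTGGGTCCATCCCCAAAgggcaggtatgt

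By a rule set after the probe sequences had been seen, from these 9 contigs the strand of the others was followed through runs of at least 18 shared or complementary bases and through similarity of the translated probes. This fixed 71 of the 92 contigs with 0 conflicting links. Of these, 61 had probes with the letters of the coding strand and 10 had probes with the letters of the complement. Labelled cRNA made from an mRNA is complementary to it, so a probe with coding letters is the kind that can pair with it. Among the brightest probes that stand for the 48 genes, 32 were coding, 4 were complementary (CYP2F4, CYP2U1, CYP2D11 and CYP2C66) and 12 were not determined. The undetermined ones included the names with the highest ratios, CYP3A11, CYP20A1, CYP3A23/3A1, CYP3A44 and CYP3A25. The others were CYP24A1, CYP26B1, CYP2B1, CYP1B1, CYP46A1, CYP21A1 and CYP2J12. What RNA the complementary probes paired with was not tested. Where a lower minimum of similarity was allowed (a score of 38 in place of 45) the links conflicted at 142 places, and with 42, 50 or 55 no contig was oriented otherwise.

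Several names shared their probe. CYP3A23/3A1 and CYP3A44 had the same 60 bases as brightest probe, as did CYP2C29 and CYP2C8, and CYP2J13 and CYP2J4. CYP2C65 shared 48 bases with the CYP2C29 probe, CYP2D26 and CYP2D4 shared 54, and CYP2B13 and CYP2B19 shared 36. Identical probes are a single measurement under 2 names, and with each counted once 45 genes remained, 14 called higher and 19 lower. The shared runs are in capitals.
CYP3A23/3A1 and CYP3A44: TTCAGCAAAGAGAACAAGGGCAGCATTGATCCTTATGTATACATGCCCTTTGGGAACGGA
CYP2C29 and CYP2C8: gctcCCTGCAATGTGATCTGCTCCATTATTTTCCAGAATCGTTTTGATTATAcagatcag
CYP2C65: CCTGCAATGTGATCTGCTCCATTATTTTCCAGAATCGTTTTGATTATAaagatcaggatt
CYP2D26: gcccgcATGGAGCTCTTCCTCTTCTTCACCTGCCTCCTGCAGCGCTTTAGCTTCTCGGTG
CYP2D4: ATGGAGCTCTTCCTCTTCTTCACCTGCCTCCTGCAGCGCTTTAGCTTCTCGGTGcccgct

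Of the 48 P450 genes, 16 were higher and 20 were lower in HFD liver, and 12 were not called. Together 75% were called, beside 60.3% of all genes tested, of which 31.4% were higher and 28.9% lower. The median ratio was -0.03 over the P450 genes and 0.01 over all genes. The CYP3A names rose and most CYP2D and CYP2C names fell. The called P450 genes had a median size of change of 0.34, and all called genes of 0.19. The spread between animals was wider as well, with a median SD of 0.19 over all 48 P450 genes against 0.11 over all genes. Only CYP2F4 passed a difference of 2-fold. In 21 of the 36 called P450 genes all 10 animals lay on the same side of 0, 10 of them higher and 11 lower. Among the 8337 called genes of all those tested, this held for 2256 higher and 2099 lower genes. With uncalled genes counted in, the P450 shares were 10 and 11 of 48. The shares of all tested genes were 16.3% and 15.2%.

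**Figure D1:**
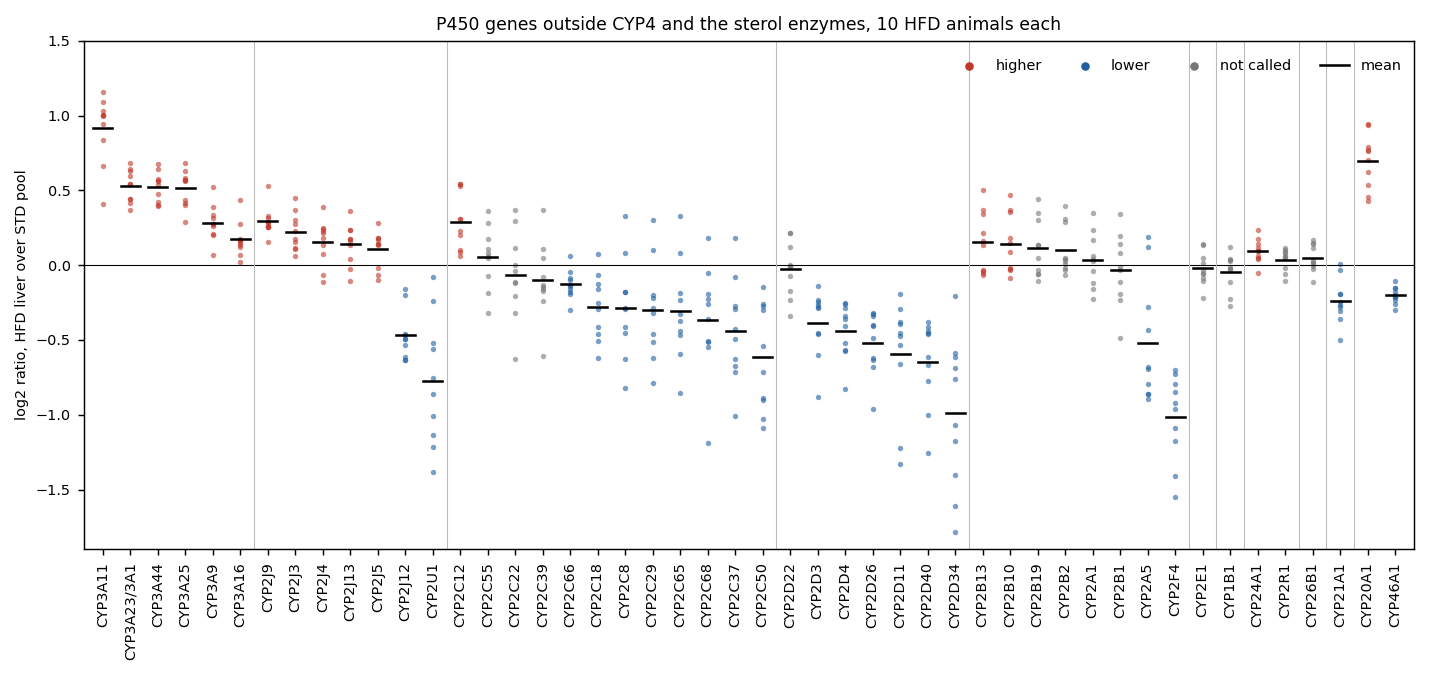
Log2 ratio, HFD over STD pool (y axis) for the 48 P450 genes (x axis, grouped by subfamily), with a point for each of the 10 animals and a bar at their mean. Red genes were called higher, blue lower and grey were not called; the 6 CYP3A names lie above 0 in every animal, and CYP2F4 has the lowest mean at -1.02.

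Among the arrays, 6 differed from the other 14, those of animals 5 to 10 that carried HFD RNA in Cy3. Over the kept probes their ratios correlated with each other at a median r of 0.88, the other 14 arrays with each other at 0.60, and the 6 with the 14 at 0.49. The share of probes well above background ranged over the arrays from 74.8% to 97.2% for HFD RNA, no spot was saturated, and the number of arrays limits the precision. The 20 arrays lay on 7 slides in 3 scan sessions, and every animal had 1 array in the first session and 1 in a later one. A fit to the first or to the later sessions mixes both dye orientations between animals, so dye differences add to its spread. Values on the other 14 arrays, in the first session or in the later sessions are given where they change a call. The fit to the 14 arrays had a dye term and took arrays of the same animal as correlated. Its values are midpoints of the 2 dye orientations, not plain means, and its arrays with HFD in Cy3 came from animals 1 to 4 only. Of the 20 hepatocyte markers chosen for this work 19 were measured, 15 of them lower and 1 higher, with a median ratio of -0.38 and a mean over the list between -0.55 and -0.28 in each animal. Fewer cells of a type and less RNA per cell cannot be told apart in bulk liver, and the part of this shift in the P450 ratios was not tested. Macrophage markers were higher in 7 and lower in 4 of 14, T, B and NK cell markers lower in 6 of 8, stellate cell markers higher in 3 and lower in 3 of 12, and endothelial markers higher in 4 and lower in 2 of 10. Of the thinner lists, 1 of 6 cholangiocyte, 3 of 5 adipocyte, 2 of 4 red cell and 0 of 2 adrenal or gonad markers were called. Of all genes tested, 31.4% were called higher and 28.9% lower. The part of these other markers was not tested either.

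All 6 CYP3A names rose. These enzymes oxidise steroids, bile acids and most drugs. CYP3A11, in mouse the main PXR target among them, ranged from 0.41 to 1.16 with a median of 1.0. Animals 10 (0.41) and 9 (0.66) were the lowest, and the other 8 lay between 0.84 and 1.16. Its mean was 0.91 ± 0.22, a 1.88-fold rise (adjusted p = 9.36e-08). The dyes gave 0.87 with HFD in Cy5 and 0.96 with HFD in Cy3, and the 14 arrays gave 0.91.

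The shared probe of CYP3A23/3A1 and CYP3A44 spread little. Under the name CYP3A44 it ranged from 0.40 to 0.68 with a median of 0.55, at a mean of 0.53 ± 0.10 (adjusted p = 3.2e-08), and under the name CYP3A23/3A1 from 0.37 to 0.68 with a median of 0.54, at 0.53 ± 0.11 (adjusted p = 5.62e-08). CYP3A25 had a probe of its own and ranged from 0.29 to 0.68 with a median of 0.57, at 0.51 ± 0.12 (adjusted p = 1.55e-07). In all 3 names the highest animals were 7 and 8, and animals 1 and 10 were among the lowest. CYP3A9 ranged from 0.07 in animal 9 to 0.52 in animal 7 with a median of 0.28, at 0.28 ± 0.12 (adjusted p = 2.4e-05). CYP3A16 was the smallest of the CYP3A differences, from 0.02 to 0.43 with a median of 0.16 and a mean of 0.17 ± 0.11 (adjusted p = 0.000875). For CYP3A16 the ratio was 0.37 with HFD in Cy5 and -0.03 with HFD in Cy3, and the call was lost in each scan session (adjusted p = 0.077 and 0.0674) at 0.18 and 0.17.

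The CYP3A names did not agree over all their probes. When each gene was read as the mean of all its kept probes, 3 of the 6 were called higher. CYP3A11 (0.25, adjusted p = 0.0643), CYP3A25 (0.03) and CYP3A9 (-0.01) were not called. Of those still called, CYP3A44 and CYP3A16 have a single kept probe, so their values could not change. The means of CYP3A11 and CYP3A9 include the complementary probes of contigs 25146 and 151730. CYP3A11 had 3 contigs. Both probes of contig 8994, whose strand was not determined, were called higher, at 0.91 and 0.76. The 6 probes of contig 25146, which are complementary to the coding strand, lay between -0.03 and 0.26, 1 of them called higher, and the single probe of contig 113194 was at 0.09. The brightest probe of contig 25146 was 0.86 below that of contig 8994, in all 10 animals (exact sign-flip test, two-sided, p = 0.00195, the smallest that 10 animals allow). A further contig of CYP3A25, contig 517, had a ratio of -0.45 and was called lower, 0.96 below the main probe in all 10 animals (exact p = 0.00195).

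The CYP2J enzymes, arachidonic acid epoxygenases, rose under 5 of 6 names. CYP2J9 ranged from 0.16 in animal 4 to 0.53 in animal 6 with a median of 0.28, at 0.29 ± 0.09 (adjusted p = 4.31e-06). It was 0.50 with HFD in Cy3 and 0.09 with HFD in Cy5, where it lost its call (adjusted p = 0.0557). Of the 3 CYP2J9 probes, all on contig 126950, 2 were called higher and 1 lower, at -0.14. Animal 6 was the highest of the 10 for each of the 5 names that rose, and animal 4 the lowest for each. CYP2J3 (0.22 ± 0.12) was above 0 in all animals. The shared probe of CYP2J4 (0.15 ± 0.15) and CYP2J13 (0.14 ± 0.14) was below 0 in animals 1 and 4, and CYP2J5 ranged from -0.10 to 0.28 with a median of 0.14 and a mean of 0.11 ± 0.12 (adjusted p = 0.026). These are small differences, and they depended on the arrays. On the 14 arrays CYP2J4, CYP2J13 and CYP2J5 lost their calls (adjusted p = 0.1, 0.118 and 0.153) at 0.08, 0.08 and 0.07. With HFD in Cy5 alone CYP2J4 and CYP2J13 stood at -0.03. These names were not called in the first or the later scan sessions either, though their values there were close to the means above. They were 0.15 and 0.16 for CYP2J4, 0.14 and 0.14 for CYP2J13, and 0.11 and 0.10 for CYP2J5. CYP2J5 also lost its call without animal 6, 7, 8 or 9, at 0.09, 0.10, 0.10 and 0.10.

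CYP2J12 and CYP2U1, the other fatty acid hydroxylases of this group, fell. CYP2J12 ranged from -0.64 to -0.16 with a median of -0.49, and animals 2 and 3 were the closest to 0. Its mean was -0.47 ± 0.17 (adjusted p = 3.06e-06). On the 14 arrays it was -0.24 and still called lower. The other CYP2J12 probe, a coding probe on contig 57694, was at -0.19 ± 0.08 and was called lower too. That probe lay 0.28 above the brightest one, in 9 of 10 animals (exact sign-flip p = 0.00586). CYP2U1 ranged from -1.38 in animal 9 to -0.08 in animal 3 with a median of -0.81, at -0.78 ± 0.43 (adjusted p = 6.98e-05). Its 2 probes on contig 19713 are complementary to the coding strand, at -0.78 and -0.55, and the coding probe on contig 41214 was at -0.37 and was called lower too. CYP2U1 was -0.40 with HFD in Cy5, -1.15 with HFD in Cy3 and -0.48 on the 14 arrays.

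Of the 7 CYP2D names, drug and amine hydroxylases, 6 fell. CYP2D34 ranged from -1.78 in animal 10 to -0.21 in animal 5 with a median of -0.91. Its mean of -0.99 ± 0.50 was a 1.99-fold fall (adjusted p = 3.45e-05), and both of its probes gave -0.99. CYP2D40 ranged from -1.25 to -0.38 with a median of -0.53, at -0.65 ± 0.29 (adjusted p = 1.41e-05). Animal 10 was the lowest of the 10 for all 7 CYP2D names. The mean over the CYP2D names was -1.05 in animal 10, -0.84 in animal 9 and between -0.60 and -0.24 in the other 8.

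CYP2D26 ranged from -0.96 to -0.32 with a median of -0.45, at -0.52 ± 0.21 (adjusted p = 6.76e-06), and its 9 further probes were all called lower. CYP2D4 (-0.44 ± 0.18), whose probe shares most bases with it, was called lower on all 5 further probes. Both names differed by dye. CYP2D26 was -0.17 with HFD in Cy5 and -0.86 with HFD in Cy3, and CYP2D4 was -0.08 and -0.80, so that CYP2D4 lost its call on the Cy5 arrays (adjusted p = 0.218). In the fit to the 14 arrays both were called lower, at midpoints of the dye orientations of -0.48 and -0.40. CYP2D3 (-0.38 ± 0.22) was called lower on all 3 of its probes, of which the probe on contig 53392 was at -1.04.

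CYP2D11 ranged from -1.33 to -0.19 with a median of -0.46, at -0.59 ± 0.38 (adjusted p = 0.000252), and animals 9 and 10 were the only ones under -1. Its only probe is complementary to the coding strand and to probes of CYP2D26 and CYP2D4. On the 14 arrays CYP2D11 stood at -0.34. CYP2D22 was the CYP2D name with no call, at -0.03 ± 0.18 and an adjusted p of 0.667.

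The CYP2C names, which oxidise drugs, steroids and arachidonic acid, numbered 12, and 8 fell while CYP2C12 rose. CYP2C50 ranged from -1.09 in animal 10 to -0.15 in animal 5 with a median of -0.62, at -0.61 ± 0.35 (adjusted p = 0.000104). It differed by dye, at -0.26 with HFD in Cy5 and -0.96 with HFD in Cy3, and was -0.40 on the 14 arrays. CYP2C37 (-0.44 ± 0.34), CYP2C68 (-0.37 ± 0.37), CYP2C65 (-0.31 ± 0.33), CYP2C29 (-0.30 ± 0.33) and CYP2C8 (-0.28 ± 0.33) fell less evenly. In these 5 names animal 5 was above 0, between 0.18 and 0.33, and animal 10 was the lowest, between -1.19 and -0.79. CYP2C29 and CYP2C8, which have the same probe sequence, lost their calls with HFD in Cy5 (-0.13 and -0.10, adjusted p = 0.246 and 0.361), in the first scan session (adjusted p = 0.0695 and 0.0906) and in animals 5 to 10 alone (adjusted p = 0.0828 and 0.103). CYP2C65 lost its call in animals 5 to 10 alone (adjusted p = 0.0856) and on its second brightest probe, at -0.09 (adjusted p = 0.271). CYP2C18 ranged from -0.62 in animal 10 to 0.08 in animal 8 with a median of -0.27, at -0.28 ± 0.22 (adjusted p = 0.00128), and was not called with HFD in Cy5 (-0.15, adjusted p = 0.0657). CYP2C66 (-0.13 ± 0.10) was well above background on 11 of the 20 arrays in either RNA, and the authors' deposited table had it at -0.57. Its call was lost with HFD in Cy3 (-0.08, adjusted p = 0.19), in animals 1 to 4 alone (-0.09, adjusted p = 0.318) and in the later scan sessions (-0.11, adjusted p = 0.174).

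CYP2C12, a female-specific steroid hydroxylase of rat liver, was above 0 in all 10 males. It ranged from 0.06 to 0.54 with a median of 0.27, at 0.29 ± 0.19 (adjusted p = 0.000416). Animals 7, 9 and 10 were the highest, between 0.53 and 0.54, and the means were 0.15 in animals 1 to 4 and 0.39 in animals 5 to 10. In animals 1 to 4 alone the call was lost (adjusted p = 0.0553). CYP2C39 (-0.10 ± 0.25), CYP2C22 (-0.07 ± 0.29) and CYP2C55 (0.05 ± 0.21) were not called, though CYP2C55 was called higher on the 14 arrays, at 0.14 (adjusted p = 0.04). For CYP2C55 8 of 9 further probes were called lower, all of them on contigs 82616 and 142760, whose probes are complementary to the coding strand. CYP2C39 had a second coding probe at -0.74 on contig 111459, called lower and 0.63 below the brightest one in all 10 animals (exact p = 0.00195).

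**Figure D2:**
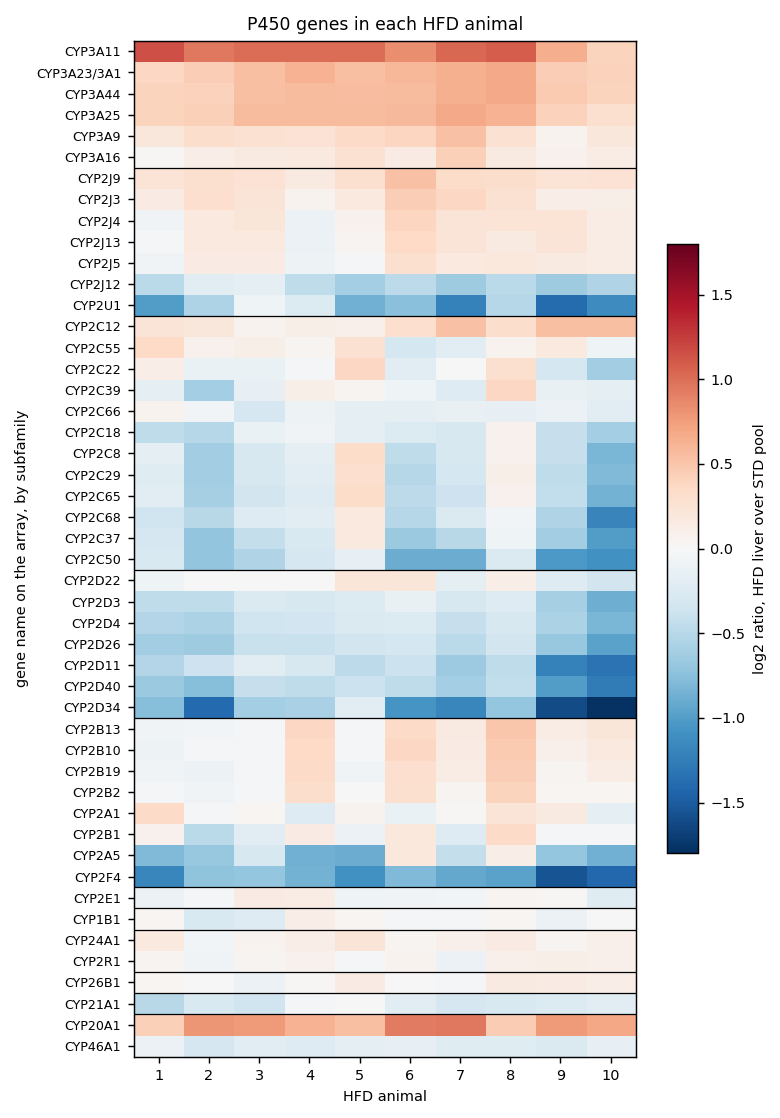
Log2 ratio, HFD over STD pool, for each P450 gene (rows, grouped by subfamily) in each HFD animal (columns 1 to 10), on a colour scale from blue (lower) to red (higher). Animal 10 is the darkest blue column in the CYP2D rows, and animals 4, 6 and 8 are the red columns in the CYP2B rows.

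CYP2F4, named for a lung enzyme that oxidises small aromatic compounds, was the lowest member. It ranged from -1.55 in animal 9 to -0.70 in animal 3 with a median of -0.94. Animals 9 and 10 lay at -1.55 and -1.41, the others between -1.18 and -0.70. The mean was -1.02 ± 0.29, a 2.02-fold fall (adjusted p = 2.67e-07). All 7 probes of its only contig were called lower, between -1.19 and -0.61, and all 7 have the letters of the complement of the coding strand.

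CYP2A5, the coumarin hydroxylase of mouse, had a mean of -0.52 ± 0.41 (adjusted p = 0.00106), and all 10 of its probes on 2 contigs were called lower. Animals 6 (0.19) and 8 (0.12) were above 0 and the other 8 lay between -0.89 and -0.28. CYP2A1, named for a rat testosterone hydroxylase, ranged from -0.23 to 0.35 with a median of 0.03 and was not called (0.03 ± 0.18, adjusted p = 0.599).

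The CYP2B enzymes are the classic targets of CAR and of phenobarbital. CYP2B13 (0.15 ± 0.20, adjusted p = 0.0317) and CYP2B10 (0.14 ± 0.20, adjusted p = 0.0361) rose, and CYP2B19 (0.11 ± 0.19), CYP2B2 (0.10 ± 0.17) and CYP2B1 (-0.03 ± 0.24) were not called. For CYP2B1 both further probes, on contig 99129, were called lower, at -0.22 and -0.58. The brightest CYP2B1 probe was called lower with HFD in Cy5 alone (-0.30) and higher with HFD in Cy3 alone (0.24). In CYP2B13, CYP2B10, CYP2B19 and CYP2B2 the 3 highest animals were 4, 6 and 8, between 0.29 and 0.50, and the other 7 lay between -0.11 and 0.21. The CYP2B13 and CYP2B10 calls were lost without any 1 of animals 4, 6, 7, 8 and 10, at 0.11 to 0.15 and 0.11 to 0.14, and also on the 14 arrays and in a fit to the authors' deposited log2 ratios (adjusted p = 0.0546 and 0.0584). Both calls were also lost in the first scan session (adjusted p = 0.204 and 0.306), and in the later sessions CYP2B19 was called higher, at 0.15 (adjusted p = 0.0443). CYP2B10 had 13 probes on 5 contigs. Contig 91817 had 3 probes called higher, between 0.26 and 0.44, and contig 91818 had 3 called lower, between -0.59 and -0.44. The mean of all its probes was -0.08 and not called.

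CYP2E1, the ethanol-inducible P450, showed no call when both dyes were averaged, with a range from -0.22 to 0.14, a median of -0.04 and a mean of -0.02 ± 0.11 (adjusted p = 0.604). Its dye effect was the largest among these genes. The ratio was 0.52 ± 0.12 with HFD in Cy5 and -0.56 ± 0.12 with HFD in Cy3, a difference of 1.09 (adjusted p = 2.56e-09), and either orientation alone would be called. Of its 5 further probes 1 was called lower, at -0.14.

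The remaining names belong to other branches. CYP20A1, an orphan P450 of unknown substrate, rose in all animals, from 0.43 in animal 1 to 0.94 in animals 6 and 7 with a median of 0.73. Its mean was 0.69 ± 0.18 (adjusted p = 1.95e-07), and its 3 further probes lay between 0.53 and 0.74. CYP46A1, the cholesterol 24-hydroxylase of brain, fell by 0.20 (SD 0.06, adjusted p = 9.58e-06) but was not called on the Cy5 arrays, at -0.03 (adjusted p = 0.379), or as the mean of its probes, at -0.04 (adjusted p = 0.0501), and 1 of its 4 further probes was called lower, at -0.08.

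CYP21A1, the steroid 21-hydroxylase, ranged from -0.50 to 0.01 with a median of -0.26, at -0.24 ± 0.15 (adjusted p = 0.000386), and lost its call in the later scan sessions (-0.15, adjusted p = 0.0704). CYP24A1, which breaks down vitamin D, ranged from -0.06 to 0.23 with a median of 0.09, at 0.10 ± 0.08 (adjusted p = 0.00922). The CYP24A1 call was lost with HFD in Cy3 (0.07, adjusted p = 0.0809), in animals 1 to 4 alone (0.07, adjusted p = 0.332), in the later scan sessions (0.06, adjusted p = 0.219) and on its other probe (0.03, adjusted p = 0.29). CYP2R1, which activates vitamin D, was not called (0.04 ± 0.07). It was called lower with HFD in Cy5 alone (-0.15) and higher with HFD in Cy3 alone (0.22). CYP1B1, an oestrogen and hydrocarbon hydroxylase, ranged from -0.27 to 0.12 with a median of -0.02 and was not called (-0.04 ± 0.12). Its brightest probe was called higher with HFD in Cy5 alone (0.17) and lower with HFD in Cy3 alone (-0.26). The 2 further CYP1B1 probes were called lower at -0.24. CYP26B1, a retinoic acid hydroxylase, ranged from -0.11 to 0.17 with a median of 0.02 and was not called (0.05 ± 0.09).

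Dye orientation separated many of these values. The ratio with HFD in Cy5 differed from that with HFD in Cy3 in 31 of the 48 genes (64.6%), beside 48.8% of all genes tested (limma on the difference per animal). The difference was at least 0.5 in 6 genes, CYP2E1 (1.09), CYP2U1 (0.76), CYP2D4 (0.72), CYP2C50 (0.70), CYP2D26 (0.69) and CYP2B1 (-0.54). In 10 genes the orientations had opposite signs, and 3 of these, CYP3A16, CYP2J4 and CYP2J13, were called on the mean of both. The averages above weigh both orientations equally.

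**Figure D3:**
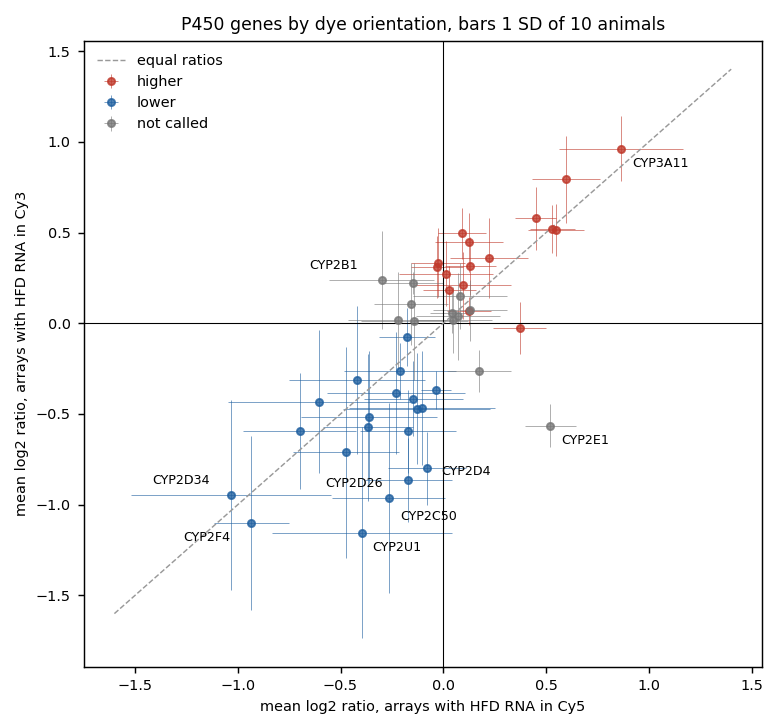
Mean log2 ratio of the P450 genes on arrays with HFD RNA in Cy5 (x axis) and in Cy3 (y axis), with bars of 1 SD over the 10 animals and the line of equal ratios dashed. CYP2E1 lies farthest from the line, at 0.52 and -0.56, and CYP3A11 lies near it, at 0.87 and 0.96.

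Of the 27 called P450 genes with further probes, 5 (18.5%) had at least 1 further probe called in the opposite direction, beside 22.9% of all such genes. For 24 names the probes came from more than 1 contig, and the brightest probe of each of the 44 further contigs was set against the gene's own probe within each animal. The difference passed an adjusted p of 0.05 in 29 of the 44 (65.9%), beside 53.6% of the 14736 further contigs of all genes (exact sign-flip test over 10 animals, adjusted over all of these). For 4 of the 24 names, CYP2B10, CYP2J4, CYP3A9 and CYP3A25, probes of both directions were called across contigs. The 3 probes of CYP2J4 on contig 16217 lay between -0.50 and -0.34 while those on its 4 other contigs lay between 0.09 and 0.31, and CYP3A9 had 3 probes on contig 151730 between -0.46 and -0.15 beside 4 on contig 63949 between 0.14 and 0.28.

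**Figure D4:**
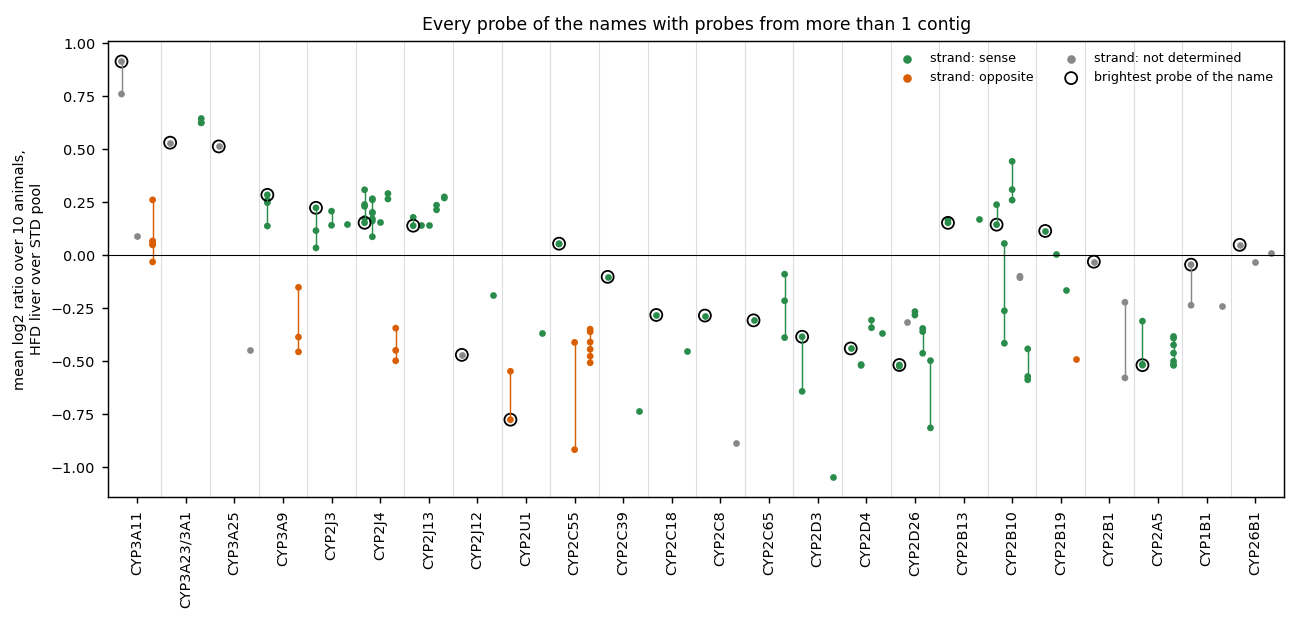
Mean log2 ratio over the 10 animals (y axis) of every kept probe of the 24 names with more than 1 contig (x axis), with the probes of a contig in a column of their own. Green probes have the letters of the coding strand, orange those of its complement and grey are not determined, and a ring marks the brightest probe; the orange probes of CYP2J4, CYP3A9, CYP2B19 and CYP2C55 all lie below the ringed one.

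Of 134 coding probes 48 were called higher and 55 lower, with a median of -0.03. Of 32 complementary probes 1 was called higher and 25 lower, with a median of -0.45. The 32 probes come from 10 contigs, and probes of the same contig are not independent. CYP2F4 holds 7 of them, contig 142760 of CYP2C55 holds 6 and contig 25146 of CYP3A11 holds 6. Of all genes tested, each read by its brightest probe, 31.4% were called higher and 28.9% lower. In 15 pairs a coding probe and a complementary probe shared a complementary run, and the coding probe had the higher ratio in 14, the exception being CYP2D11 with CYP2D26 on contig 29187. The pairs are not independent, since they hold only 8 different complementary probes, and their shared runs were 21 to 58 bases long. The 4 pairs shown next come from CYP3A, CYP2J, CYP2B and CYP2D, with the complementary run in capitals.
CYP3A23/3A1, contig 89577, coding, ratio 0.62: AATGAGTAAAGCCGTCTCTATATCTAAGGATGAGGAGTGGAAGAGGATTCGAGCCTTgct
CYP3A11, contig 25146, complement, ratio 0.05: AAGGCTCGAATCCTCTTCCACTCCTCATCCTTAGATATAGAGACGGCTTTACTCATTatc
CYP2J4, contig 42109, coding, ratio 0.15: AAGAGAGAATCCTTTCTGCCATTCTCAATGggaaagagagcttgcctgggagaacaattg
CYP2J4, contig 16217, complement, ratio -0.34: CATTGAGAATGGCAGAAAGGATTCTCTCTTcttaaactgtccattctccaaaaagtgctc
CYP2B19, contig 75862, coding, ratio -0.16: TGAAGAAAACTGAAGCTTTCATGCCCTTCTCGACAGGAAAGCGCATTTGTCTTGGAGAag
CYP2B19, contig 142436, complement, ratio -0.49: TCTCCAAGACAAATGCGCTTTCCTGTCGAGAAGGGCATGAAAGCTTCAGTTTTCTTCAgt
CYP2D26, contig 2601, coding, ratio -0.46: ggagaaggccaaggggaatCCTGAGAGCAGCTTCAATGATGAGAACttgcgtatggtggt
CYP2D11, contig 17215, complement, ratio -0.59: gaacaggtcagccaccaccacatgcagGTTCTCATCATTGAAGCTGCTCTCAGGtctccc

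In the CYP3A pair the complementary run was 57 bases long and the coding probe was higher in all 10 animals, by 0.57 ± 0.23 (exact sign-flip p = 0.00195, adjusted p = 0.00326 over the 15 pairs). The CYP2J4 pair shared 30 bases and differed by 0.50 ± 0.29, and the CYP2B19 pair shared 58 bases and differed by 0.33 ± 0.17, each in all 10 animals with the same p. The CYP2D pair shared 27 bases and differed by 0.13 ± 0.18, in 7 of 10 animals (exact p = 0.0547), the single pair of the 15 that missed an adjusted p of 0.05. Probes of these genes with a complementary partner under their own name were no more common than elsewhere, 3.52% of 199 beside 4.14% of 61679 kept named probes. With all complementary probes left out before the brightest was chosen, 45 genes remained, 16 higher and 17 lower.

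**Figure D5:**
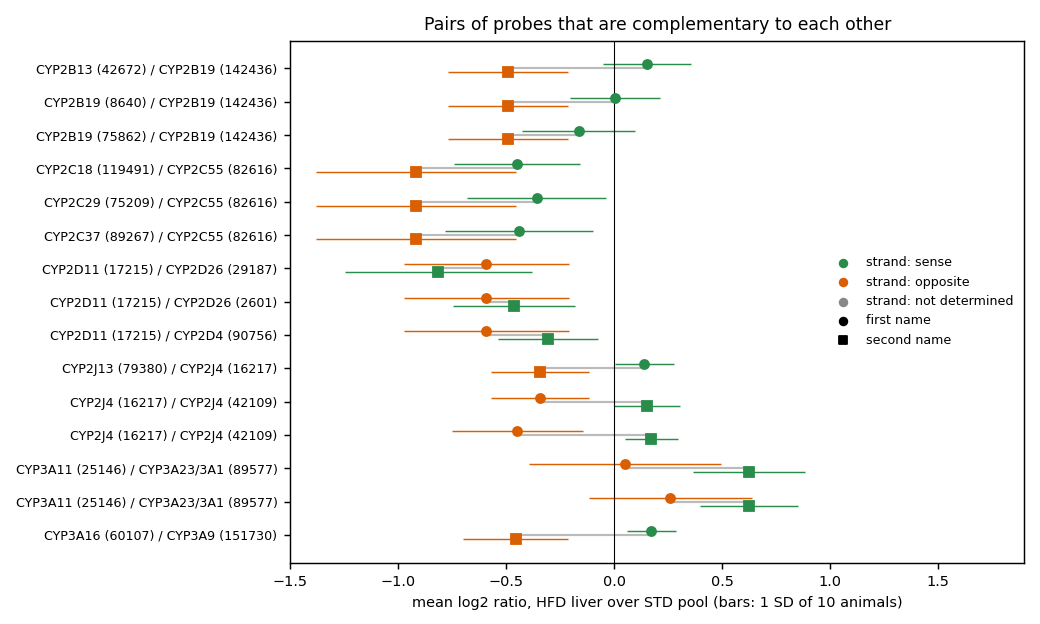
Mean log2 ratio (x axis, bars 1 SD over the 10 animals) of the 15 pairs of probes that are complementary to each other, labelled by name and contig number, with a circle for the first name and a square for the second. Green probes have coding letters and orange ones those of the complement; the green probe lies to the right in 14 pairs.

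The partners and regulators of P450s were taken from lists. Their counts stand beside 31.4% called higher and 28.9% called lower of all genes tested, and no list was tested as a set. Of 9 electron donor genes 3 were higher and 3 lower. POR, the P450 reductase, rose by 0.39 ± 0.14 (adjusted p = 3.79e-06) on all 12 of its probes, and the cytochrome b5 reductase gene CYB5R1 by 0.20 ± 0.17. FDX1, the ferredoxin that feeds mitochondrial P450s, fell to -0.63 ± 0.28, and CYB5B to -0.18 ± 0.10. Of 16 genes of haem synthesis and breakdown 6 were higher and 6 lower, with BLVRA (0.61 ± 0.28) and TSPO (0.56 ± 0.16) among the higher and ABCB6 (-0.31 ± 0.21) among the lower. ALAS1, the rate-limiting enzyme of haem synthesis, was not called and ranged from -1.05 to 0.79 (-0.23 ± 0.53).

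Of 21 receptors and partners 4 were higher and 7 lower. NR1I2 (PXR) fell slightly, -0.13 ± 0.17 with an adjusted p of 0.0306, and NR1I3 (CAR, -0.05 ± 0.16) and AHR (0.05 ± 0.18) were not called. HNF4A, a hepatocyte factor that many P450 genes need, fell to -0.39 ± 0.19 on all 7 of its probes, and PPARA to -0.32 ± 0.24. RXRA, the shared partner of PXR and CAR, was at 0.47 ± 0.19 on its brightest probe, but 5 of its 8 further probes were called lower. RXRG (0.25 ± 0.18) was the other receptor gene at the top.

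Of 12 other oxygenases and epoxide hydrolases 6 were higher and 4 lower. FMO4, a flavin monooxygenase, rose by 0.46 ± 0.14, while AOX1 (-0.48 ± 0.33) and the microsomal epoxide hydrolase EPHX1 (-0.32 ± 0.18) fell. Of 12 genes of the growth hormone axis, which sets the sex-dependent P450s, 3 were higher and 3 lower, with IGFALS (0.35 ± 0.32) and CISH (0.19 ± 0.10, 8 of 9 further probes lower) at the top and IGF1 (-0.47 ± 0.32) and STAT5B (-0.27 ± 0.12) at the bottom. P450s are densest in pericentral hepatocytes. Of 12 pericentral genes that are not P450s 3 were higher and 5 lower, with GULO at 0.86 ± 0.14, SLC1A2 at 0.23 ± 0.14, LECT2 at -1.35 ± 0.41 and AXIN2 at -0.39 ± 0.17 (both of its further probes higher). Of 16 periportal genes 12 were lower and 0 higher, with PCK1 at -1.52 ± 0.46 and ARG1 at -1.15 ± 0.27 the lowest and HAL at -0.19 ± 0.26 and ASL at -0.14 ± 0.11 the closest to 0 of those called. The periportal median was -0.32, beside -0.38 for the hepatocyte markers, of which 15 of 19 were lower. ALB, CPS1, ASS1 and TAT stand in both of these lists. A shift between zones was not tested, nor was the part of these lists in the P450 ratios.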

How the data were processed

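Per the file headers, spot intensities and local backgrounds were made with Agilent Feature Extraction 10.7.3.1, as were processed intensities and a log10 ratio of red over green; the log10 ratio served to check array orientation. The authors deposited log2 ratios per probe, for which the submitters' processing notes name limma; how they were normalised and centred is not stated there. With the dyes read from array names, these columns ran as HFD over STD pool. They correlated with the ratios used here at 0.89 to 0.96 per animal, and their medians for animals 1 to 10 were 3.44e-05, -0.0144, -0.000399, -0.0017, 0.0185, -0.0122, -0.00981, 0.00754, -0.00119 and -0.0105. Arrays of 1 orientation correlated with each other at 0.33 or more.

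Per the labels, 100 ng RNA was labelled as cRNA. Intensities were corrected with normexp (offset 50) and normalised by loess in limma 3.58.1 (R 4.3.3). Spots of a probe were averaged, ratios turned to HFD over pool and the 2 arrays of an animal averaged. Probes well above background in either RNA on at least 10 of 20 arrays were kept. lmFit and eBayes tested the mean against 0, with Benjamini-Hochberg adjustment. On simulated ratios 58 of 67 changes of 0.25, 66 of 67 of 0.5 and 66 of 66 of 1 were recovered, with 8 false calls. The simulated noise was independent between genes and animals, with no dye effect and no error of the pool. Only these few genes were changed there, beside 60.3% called in the data. The 8 false calls are therefore not an error rate of the calls above.

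The members and lists were chosen with earlier results of these data known. Per-animal values follow called members with the 8 highest and 8 lowest means of 1 sign in all animals, and each subfamily's brightest member; list genes are the 2 highest and 2 lowest called, plus POR, ALAS1, NR1I2, NR1I3, AHR and HNF4A, except for 2 genes not reported here. Probes with descriptive names (328) were left out.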

Additional observations from a re-analysis of the deposited data

Results flagged for a closer look

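Of the 48 genes, 2 had 1 animal whose distance to its neighbour took an unusually large share of the whole range of the 10 animals; chance alone flags about 1 in 20 such groups. CYP2J9 stood at 0.53 in animal 6, with the next animal at 0.33. CYP2C68 stood at -1.19 in animal 10, with the next at -0.55.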

How the results depend on the processing

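Over 31 alternatives, 16 of the 36 called genes kept their direction and call in every one that could be run for them. Among them were CYP3A23/3A1, CYP20A1, CYP2F4, CYP2D34, CYP2D40 and CYP2A5. Names with a single kept probe, such as CYP2D40, have no second brightest probe, and the mean of all their probes could not differ. CYP2F4 has complementary probes only and dropped out where these were left out. Leaving out each animal in turn gave 13 to 17 genes called higher and 20 to 21 lower. The count of 16 higher fell to 9 of 37 with the second brightest probe, to 8 in animals 1 to 4 alone and to 10 in the first scan session, a choice made after seeing the data, as were the later sessions, the strand and the shared probes; the cause was not tested, beyond the fewer genes or samples of these settings. The median ratio of all genes lay between -0.0041 and 0.024 in all of them.

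Signs turned as follows where the gene was called before or after. With the mean of all probes CYP2C55 stood at -0.38, CYP2B10 at -0.079 and CYP3A9 at -0.0090. With the second brightest probe CYP2C55 stood at -0.92 and CYP3A25 at -0.45. With HFD in Cy5 alone CYP1B1 stood at 0.17, CYP2E1 at 0.52, CYP2R1 at -0.15, CYP2J13 at -0.031 and CYP2J4 at -0.027. With HFD in Cy3 alone CYP2B1 stood at 0.24 and CYP3A16 at -0.027. Genes called neither before nor after, 11 in all, also crossed 0, among them CYP2D22 (0.105 with HFD in Cy3), CYP2B2 (-0.138 on the second brightest probe) and CYP2B19 (-0.134 as the mean of all probes). No other setting turned the sign of a called value.

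No paired analysis was possible because the only group is HFD and its reference is 1 pool. The companion genes were 25 higher and 39 lower of 97 (STAT5B stands in 2 lists), beside 31.4% and 28.9% of all genes tested. They gave 22 to 27 higher and 36 to 45 lower in the 4 alternatives run for them. These were the software's processed signals, the authors' ratios, the mean of all probes and the 14 arrays. The spread of STD animals and the array names that give the dyes limit all values.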

Other observations

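The array also carried hamster P450 entries with descriptive names, which the naming rule leaves out and which were not tested. On the brightest probe of each, the mean log2 ratio was -0.31 ± 0.30 for CYP2D20, -0.35 ± 0.28 for CYP2D27, -0.35 ± 0.33 for CYP2C27 and -0.39 ± 0.35 for CYP17A1 (SD, n = 10). The 5 probes of CYP2D20 lay between -1.07 and -0.06.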
